A study of Mus musculus with 7 samples.

Results

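Cytosolic ribosomal protein genes were described in granulocytes of mice with and without Alox15. The members were the rows of the count table whose gene symbol was Rpl or Rps followed by a number, Rplp0 to Rplp2, or Rpsa, without the Rps6k kinases and without symbols that end in -ps. This gave 93 members of the 51789 rows. Of these, 37 belong by name to the small (40S) subunit, 51 to the large (60S) subunit and 3 to the P-stalk of the large subunit. The other 2 members match by name but are no subunits: Rps19bp1 is a binding protein of Rps19, and Rpl7l1 is a paralog of Rpl7. By annotation, 86 members are protein-coding and 7 are pseudogenes.

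Each ribosome carries 1 copy of most of these proteins, so cells keep their supply in balance, and the messages are among the most abundant in a cell. Many of them begin with a C followed by a run of C and T bases, the terminal oligopyrimidine (TOP) tract, through which mTOR signalling controls their translation. Neutrophils, the main granulocyte, make their granule proteins mostly before they leave the bone marrow, and protein synthesis is lower in the mature cell.

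The 3 libraries labelled Alox15 KO (knockout) and the 4 libraries labelled Alox15 WT (wild type) were all granulocytes marked untreated. RNA was polyA RNA and libraries were made with a QuantSeq kit, which reads a tag near the 3′ end of each transcript. Alox15 encodes arachidonate 15-lipoxygenase, which oxygenates polyunsaturated fatty acids. No label used here names the organ of origin, the method of isolation, the age or sex of the mice, or the region of Alox15 that was removed. Since no label says that replicates are separate animals, the p-values reflect variation among libraries, some of which may be technical. KO 2 and KO 3 carry a different stem in their sample description from KO 1 and the 4 WT libraries, and no label explains the stem.

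Library totals ran from 3228292 to 5657192 counts. Alox15 itself had 1, 0 and 0 counts in KO 1, 2 and 3 and 0 in each WT library, so its level does not check the labels. Against the label, the libraries held unequal amounts of mature neutrophil transcripts. The mean log2 CPM (counts scaled to a library of 1000000) of 16 mature neutrophil genes was 9.67, 9.30 and 6.28 in KO 1, 2 and 3, against 10.07, 6.87, 8.74 and 8.55 in WT 1 to 4. KO 3 and WT 2 thus stood apart as neutrophil-poor libraries. The summed level of 18 T and NK cell genes was 757, 953 and 1826 CPM in KO 1 to 3, against 680, 1551, 1128 and 1346 CPM in WT 1 to 4, with Ncr1 at 0 in every library. Markers of other granulocytes were low. The 4 eosinophil genes summed to 13.6, 12.6 and 1.17 CPM in KO 1 to 3, against 17.9, 1.25, 2.19 and 5.56 CPM in WT 1 to 4, from Siglecf, Ccr3 and, in WT 1, Prg2, with Epx at 0 in every library. Of the 4 basophil and mast cell genes, Cpa3 was at 13.6, 12.9 and 5.45 CPM in KO 1 to 3, against 1.79, 24.7, 10.9 and 14.3 CPM in WT 1 to 4, and Mcpt8, Ms4a2 and Fcer1a were at 0 in every library. In bulk RNA, fewer cells of a type and less RNA per cell cannot be told apart.

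The start sites of 4 members show the TOP tract. They are the members named by the rules given under processing that have a tract exactly at the RefSeq transcript start. Rps21, Rpl38 and Rps27rt, named after their values were seen, also have such a tract and are not shown. Each site is given as 10 bases before and 20 bases from the start on GRCm38.p6, with capitals marking the pyrimidine run.
Rpl35, chr2:39005112-39005141, minus strand: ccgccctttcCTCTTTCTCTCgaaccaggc
Rps27, chr3:90213629-90213658, minus strand: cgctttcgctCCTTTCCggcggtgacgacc
Rplp2, chr7:141447641-141447670, plus strand: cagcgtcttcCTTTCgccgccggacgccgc
Rps10, chr17:27635225-27635254, minus strand: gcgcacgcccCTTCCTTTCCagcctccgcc
A promoter was found in RefSeq for 68 members. In 15 of them (22.1%) the transcript began with C and at least 4 further C or T bases on the gene's strand, against 813 of 27025 genes with a promoter (3.01%). The motif CCGGAAG, the core of sites bound by ETS family factors, lay on either strand of the 300 bases around the start in 26 of the 68 (38.2%), against 2683 of 27025 (9.93%). A match is a description of the sequence, and the count depends on the annotated start.

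The members took a variable share of all counts, and the share did not separate the genotypes. It was 9.91%, 10.6% and 22.1% in KO 1, 2 and 3, against 7.74%, 15.5%, 13.9% and 16.3% in WT 1 to 4. KO 3 was highest and WT 1 lowest, 2.86-fold apart, and the other KO libraries lay between WT 1 and WT 3. The means were 14.2 ± 6.87% in KO (SD, n = 3) and 13.4 ± 3.90% in WT (SD, n = 4), so the difference of 0.82 percentage points was smaller than the spread within either group. Wilson 95% intervals were narrow beside these gaps, 22.1% to 22.2% in KO 3 and 7.71% to 7.76% in WT 1, and cover counting error only, since no molecular identifiers are named. Without KO 3 the difference was -3.14 points, and without KO 1 it was 2.97 points, so its direction rested on single libraries.

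The neutrophil-poor libraries KO 3 and WT 2 were among the 3 libraries with the highest share, and the library richest in mature neutrophil transcripts, WT 1, had the lowest share. WT 4 departs from that order: its share was 16.3% at a neutrophil level below that of WT 3, KO 2, KO 1 and WT 1 but above that of WT 2. The part of cell composition in the share was not tested.

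The balance between subunits varied less than the total. The 40S members took 48.2%, 45.6% and 47.1% of the members' counts in KO 1 to 3, against 48.2%, 47.7%, 47.7% and 48.6% in WT 1 to 4. The 60S members took 43.1%, 39.3% and 44.4% in KO 1 to 3, against 43.4%, 44.1%, 42.7% and 43.7% in WT 1 to 4. KO 2 was lowest for both. In that library the P-stalk members made up 15.0% of the members' counts, against 8.56% and 8.44% in the other KO libraries and 8.34%, 8.09%, 9.50% and 7.58% in WT 1 to 4.

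**Figure D1:**
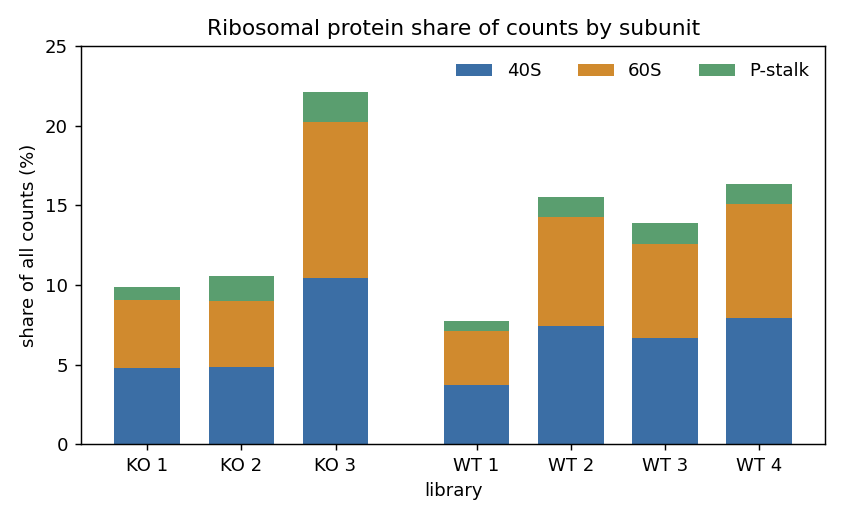
Share of all counts (%, vertical axis) taken by 40S, 60S and P-stalk members in each library (horizontal axis), stacked. KO 3 reaches 22.1% and WT 1 7.74%, and the other KO libraries lie within the range of the WT libraries.

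No member was called different between KO and WT. The test used edgeR's quasi-likelihood fit across 12506 genes with Benjamini-Hochberg adjustment, and 89 of the 93 members entered it. Rpl10l and Rpl39l had 0 counts in every library, and Rpl32l and Rps4l were too low to test. With 0 counts seen, an expected count of up to 3 per library stays within the 95% limit for counting error. At an adjusted p under 0.05, 0 of 89 members and 0 of all 12506 genes (0.0%) were called. At an unadjusted p under 0.05, 0 members passed, against 154 of all genes (1.23%), and DESeq2 called 0 members and 1 gene in all. These unadjusted counts moved with single libraries: they were 2 members and 445 genes without KO 3, 0 members and 305 genes without WT 1, and 0 members and 97 genes without WT 3. They were 4 members and 524 genes with limma-voom. The median log2 fold change of the tested members was 0.031 and that of all tested genes 0.012. Point estimates were above 0 for 48 members and below 0 for 41, beside 51.4% above 0 among all genes. This balance rested on KO 3: without it 6 estimates were above 0 and 83 below, with a median of -0.42. With the description stem as a covariate, the estimate compared KO 1 alone with the 4 WT libraries. Only KO 2 and KO 3 carry the other stem. The split was then 6 above and 83 below (median -0.34). With limma-voom it was 13 above and 76 below (median -0.28), with 0 members called. The standard errors of the members' log2 fold changes had a median of 0.41, so differences of the size of these estimates were not detectable with these libraries.

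**Figure D2:**
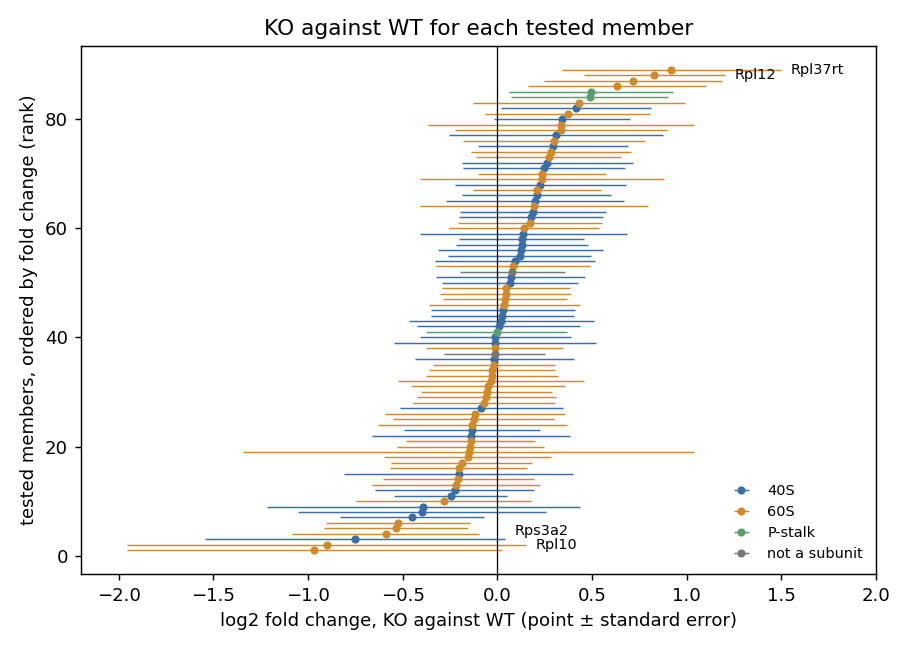
Log2 fold change of KO against WT for the 89 tested members (horizontal axis, point ± standard error), ordered by size (vertical axis, rank) and coloured by subunit. Estimates run from -0.97 to 0.92 on both sides of 0, and no member passed the test.

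Among large-subunit proteins, Rpl12, a protein at the base of the P-stalk, had the smallest p of the members. It was at 94.3, 86.7 and 145 CPM in KO 1 to 3, against 29.6, 85.2, 60.4 and 69.1 CPM in WT 1 to 4. Every KO library lay above every WT library, with KO 2 and WT 2 close together. Rpl12 averaged 109 ± 31.6 CPM in KO (SD, n = 3) and 61.1 ± 23.4 CPM in WT (SD, n = 4), a log2 fold change of 0.83 ± 0.37 (SE) with an edgeR p of 0.051 and an adjusted p of 1.00. It was the 1 member whose groups did not overlap in CPM, while 392 of all 12506 genes (3.13%) did not overlap, 196 (1.57%) in each direction.

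Rpl5 and Rpl11, which bind 5S rRNA and, outside the ribosome, Mdm2, both had overlapping groups. Rpl5 was at 624, 303 and 1402 CPM in KO 1 to 3, against 381, 439, 571 and 500 CPM in WT 1 to 4, a log2 fold change of 0.72 ± 0.47 (SE, edgeR adjusted p = 1.00). KO 2 was the lowest of the 7 libraries and KO 3 the highest, and without KO 3 the estimate was -0.089. Rpl11 was at 764, 733 and 1634 CPM in KO 1 to 3, against 676, 901, 1088 and 1034 CPM in WT 1 to 4, again with KO 3 highest.

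Rpl13a, known in human monocytic cells also for its part in a translational silencing complex formed after interferon gamma, was at 1925, 1563 and 5217 CPM in KO 1 to 3, against 1352, 2108, 1688 and 2343 CPM in WT 1 to 4. Its log2 fold change of 0.63 ± 0.47 (SE, edgeR adjusted p = 1.00) rested on KO 3 and was -0.17 without it. Rpl37rt, typed as a transcribed processed pseudogene, was at 481, 455 and 2454 CPM in KO 1 to 3, against 540, 777, 481 and 594 CPM in WT 1 to 4. KO 3 alone stood out, and the estimate of 0.92 ± 0.58 was -0.42 without that library.

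Among members with estimates below 0 and a mean of at least 8 CPM, the smallest p were those of Rpl35, Rpl6, Rpl39, Rps2 and the pseudogene Rps3a2. Rpl35, a protein near the exit of the peptide tunnel, was at 146, 194 and 346 CPM in KO 1 to 3, against 217, 394, 295 and 420 CPM in WT 1 to 4, a log2 fold change of -0.54 ± 0.38 (SE, edgeR adjusted p = 1.00). KO 1 and KO 2 lay below every WT library, while KO 3 lay within the WT range. Rpl39, a very short protein that lines the tunnel, was at 910, 624 and 1409 CPM in KO 1 to 3, against 518, 1759, 1767 and 1865 CPM in WT 1 to 4. In this row all KO libraries lay below 3 WT libraries, and WT 1 was the lowest of all. A pseudogene row, Rpl39-ps, held 31.4% of the combined counts of both rows. With it added, Rpl39 was at 1251, 1024 and 2538 CPM in KO 1 to 3, against 917, 2516, 2206 and 2503 CPM in WT 1 to 4. KO 3 was then the highest library, so the low KO 3 level holds for the own row only. Rps2 averaged 976 ± 259 CPM in KO (SD, n = 3) and 1332 ± 418 CPM in WT (SD, n = 4), and Rpl6 1225 ± 83.9 CPM in KO and 1762 ± 603 CPM in WT, in both cases with WT 1 lowest of the 7 libraries. Rps3a2, a processed pseudogene of Rps3a1, ranged 10.6-fold over the libraries, with 11.1, 68.0 and 38.2 CPM in KO 1 to 3, against 14.3, 99.6, 118 and 29.9 CPM in WT 1 to 4.

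The acidic P-stalk proteins Rplp1 and Rplp2 recruit elongation factors to the ribosome, and Rplp0 anchors them. Rplp1 was at 4574, 8557 and 11331 CPM in KO 1 to 3, against 3619, 5785, 7126 and 6649 CPM in WT 1 to 4. Rplp2 was at 2433, 5413 and 5261 CPM in KO 1 to 3, against 2009, 2940, 3604 and 3911 CPM in WT 1 to 4. KO 2 and KO 3 lay above every WT library for both genes, while KO 1 lay below 3 of the 4 WT libraries. The log2 fold changes were 0.49 ± 0.43 for Rplp1 and 0.49 ± 0.41 for Rplp2 (SE, edgeR adjusted p = 1.00 each). Rplp0 did not share this pattern in KO 2: it was at 1647, 1723 and 2872 CPM in KO 1 to 3, against 1325, 2414, 2367 and 2235 CPM in WT 1 to 4.

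Rpsa, the small-subunit protein that is also known as the laminin receptor, was at 1274, 2318 and 2741 CPM in KO 1 to 3, against 1038, 1999, 2117 and 1740 CPM in WT 1 to 4. Rps27a, made as a fusion with ubiquitin, was at 1059, 823 and 1975 CPM in KO 1 to 3, against 792, 1239, 1439 and 1982 CPM in WT 1 to 4. In both, WT 1 was lowest and the groups overlapped.

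Several members have a paralog that can take their place or that is used in other tissues. Rpl22 was at 675, 561 and 1269 CPM in KO 1 to 3, against 492, 1033, 869 and 1062 CPM in WT 1 to 4, and its paralog Rpl22l1 at 78.7, 57.0 and 153 CPM in KO 1 to 3, against 49.6, 107, 122 and 152 CPM in WT 1 to 4. The 2 genes followed the same outline over the libraries, low in WT 1 and KO 2 and high in KO 3 and WT 4. Rps27l, a p53 target paralog of Rps27, ranged 2.12-fold over the libraries, while Rps27 ranged 8.10-fold. Rpl36a ranged 5.09-fold, with 4233 CPM in KO 3 and 831 CPM in WT 1, and its paralog Rpl36al 2.00-fold.
Rpl3l, the striated muscle paralog of Rpl3, was at 3.89, 2.76 and 1.95 CPM in KO 1 to 3, against 15.8, 1.10, 2.38 and 3.44 CPM in WT 1 to 4, with WT 1 alone set apart. Rps4l, a transcribed pseudogene of the same family as the X-linked Rps4x, stayed at 0.195 to 5.38 CPM. Rps4x itself was at 1451, 1535 and 2515 CPM in KO 1 to 3, against 1043, 2043, 2035 and 1640 CPM in WT 1 to 4.

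KO 3 was the highest library for 62 of the 89 tested members, and WT 1 was the lowest for 63. WT 4 was highest for 10 and WT 3 for 9, while KO 2 was lowest for 20. The median SD of log2 CPM over the 7 libraries was 0.51 for the 87 members with a mean of at least 8 CPM and 0.51 for the 9296 genes tested at that level. Rps19bp1 and Rpl7l1, the pair that are no ribosomal subunits, had the smallest ratios of highest to lowest library, 1.47 and 1.77. Among protein-coding subunits at that level the smallest ratios were those of Rps16 (1.79), Rps10 (1.82) and Rpl24 (1.82), and the largest those of Rpl10 (23.0), Rps27 (8.10), Rpl37a (6.09) and Rpl37 (6.06).

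To see changes in make-up apart from the total, each member was also fitted with the members' own total as library size. No member was called (0 of 89, and 0.0% of the 12506 genes, edgeR with Benjamini-Hochberg adjustment), and at an unadjusted p under 0.05 there were 0 members against 91 genes (0.728%), or 1 member and 328 genes without KO 3. Within the members' counts, Rpl12 made up 9.32, 8.28 and 6.29 per 10000 in KO 1 to 3, against 3.55, 6.19, 4.38 and 4.09 per 10000 in WT 1 to 4, a log2 fold change of 0.81 ± 0.40 (SE, edgeR adjusted p = 1.00). All KO libraries again lay above all WT libraries. Rpl35 made up 14.5, 18.5 and 15.0 per 10000 in KO 1 to 3, against 26.0, 28.6, 21.4 and 24.9 per 10000 in WT 1 to 4. Every KO library lay below every WT library, with a log2 fold change of -0.66 ± 0.38 (SE, edgeR adjusted p = 1.00). How many of all genes separate the groups on this scale was not counted, so the separations of Rpl12 and Rpl35 on it have no background. Rpl39 made up 90.0, 59.6 and 61.1 per 10000 in KO 1 to 3, against 62.1, 128, 128 and 110 per 10000 in WT 1 to 4, overlapping through WT 1.

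Rplp1 and Rplp2 were set apart by 1 library on this scale. Rplp1 made up 452, 817 and 492 per 10000 member counts in KO 1 to 3, against 434, 420, 517 and 394 in WT 1 to 4. Rplp2 made up 241, 517 and 228 per 10000 in KO 1 to 3, against 241, 213, 262 and 232 in WT 1 to 4. KO 2 was highest for both, and the other KO libraries lay within the WT range. The same library was lowest for Rps27, an S27 family zinc-finger protein of the small subunit, with 77.8, 30.4 and 106 per 10000 in KO 1 to 3, against 111, 121, 78.7 and 153 in WT 1 to 4.

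**Figure D3:**
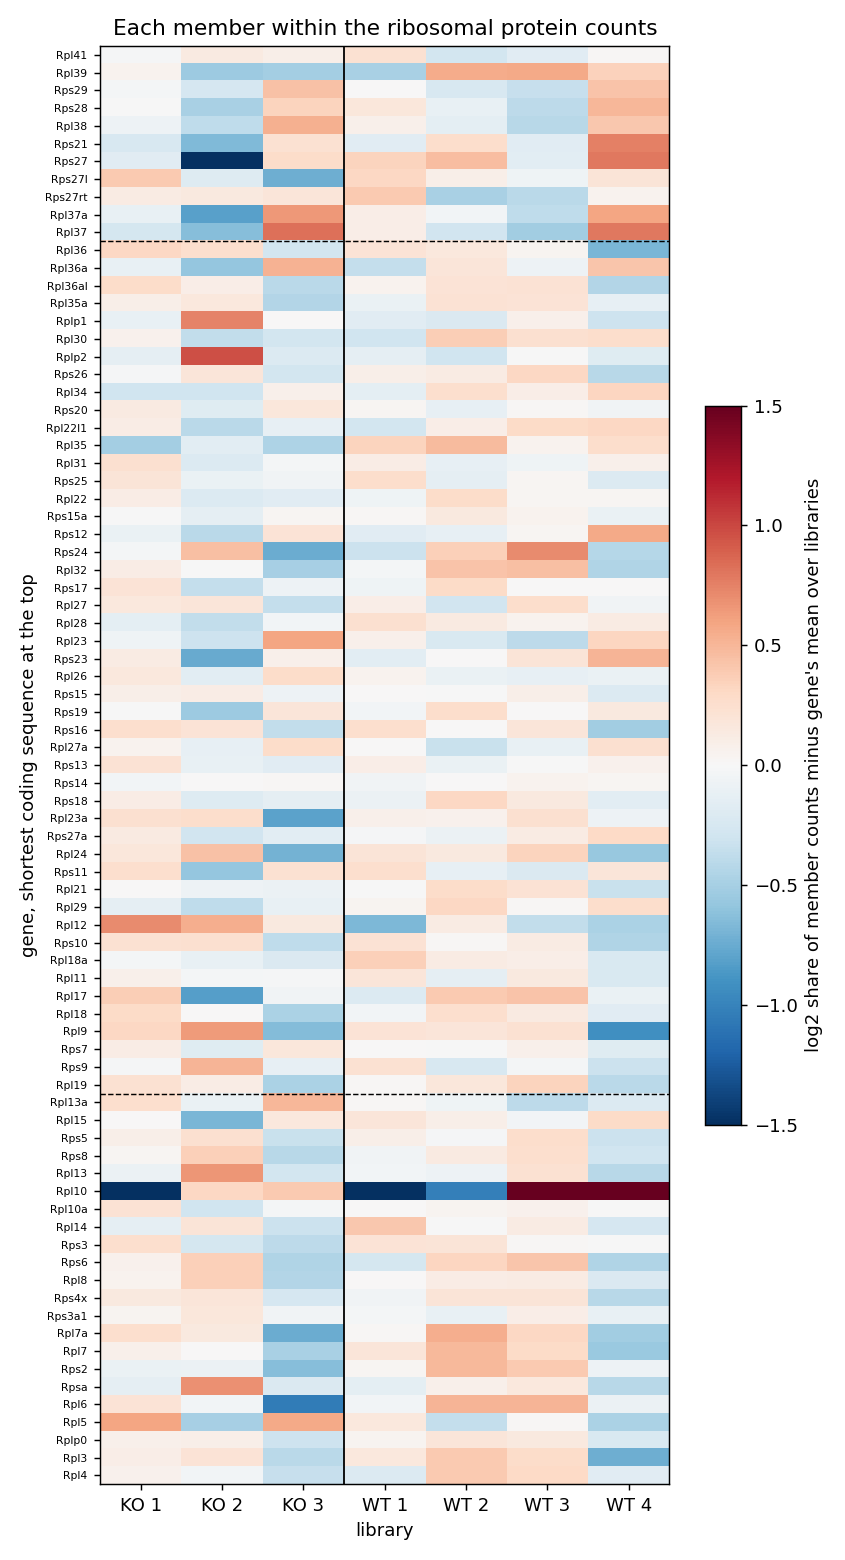
Log2 share of the members' counts minus the gene's mean over libraries (colour, clipped at 1.5 in either direction) for 81 protein-coding subunit members, ordered from short to long coding sequence (rows), in KO and WT libraries (columns). Dashed lines mark coding lengths of 300 and 600 bases. KO 3 and WT 4 are high for most of the shortest members, KO 2 is low for most of them and high for Rplp1 and Rplp2, and Rpl10 differs most between libraries.

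A pattern of the make-up that crossed the genotypes followed coding length; it was noticed in these values and is given as a description. The 11 members with a coding sequence of at most 300 bases, among them Rps29, Rpl37, Rpl37a, Rpl38, Rps28, Rps21 and Rps27, took 21.5%, 17.2% and 30.8% of the counts of the 81 protein-coding subunit members in KO 1 to 3, against 24.0%, 21.7%, 18.7% and 32.4% in WT 1 to 4. The 22 members of at least 600 bases took 22.8%, 24.7% and 18.4% in KO 1 to 3, against 21.9%, 24.3%, 24.7% and 18.0% in WT 1 to 4. KO 3 and WT 4 were highest for the short members' sum and lowest for that of the long ones. The ratio of short to long thus ran from 0.699 in KO 2 to 1.80 in WT 4, with group means of 1.10 ± 0.51 in KO (SD, n = 3) and 1.14 ± 0.46 in WT (SD, n = 4). With a limit of 350 coding bases, chosen after seeing the data, 19 members were short, now with Rplp1 and Rplp2. Their share was 35.5%, 37.2% and 44.3% in KO 1 to 3, against 37.1%, 35.7%, 34.0% and 44.9% in WT 1 to 4. KO 3 and WT 4 remained the highest libraries at that limit, but KO 2 was no longer the lowest.

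Rpl37, a zinc-binding protein, made up 247, 190 and 522 per 10000 member counts in KO 1 to 3, against 316, 242, 206 and 512 in WT 1 to 4. Rps29, another small zinc-binding protein, made up 613, 527 and 846 per 10000 in KO 1 to 3, against 628, 532, 492 and 842 in WT 1 to 4. For both genes KO 3 and WT 4 lay clear of the other 5 libraries. They were the 2 highest libraries for 5 of the 11 short members: Rps29, Rps28, Rpl38, Rpl37a and Rpl37. Rps21 and Rps27 were highest in WT 4 and next highest in WT 2. The own row of Rpl39 was low in KO 3, as given above. Rps27l was lowest in KO 3, at 15.7, 10.5 and 7.25 per 10000 in KO 1 to 3, against 14.9, 12.7, 11.5 and 13.7 in WT 1 to 4. Rps27rt was highest in WT 1 and next highest in KO 3. Rpl41, with the shortest coding sequence of all, made up 243, 272 and 262 per 10000 in KO 1 to 3, against 288, 203, 220 and 249 in WT 1 to 4, with WT 1 highest.

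Spearman's rho between coding length and a member's deviation within the members' counts, over 81 genes that share each library, was 0.22, 0.35 and -0.34 in KO 1 to 3, against -0.033, 0.19, 0.45 and -0.51 in WT 1 to 4. Among 8559 other protein-coding genes, the 212 with a coding sequence of at most 300 bases took 5.43%, 4.22% and 6.45% of the counts in KO 1 to 3, against 5.56%, 4.77%, 5.05% and 7.05% in WT 1 to 4. KO 3 and WT 4 were the highest there too, and KO 2 the lowest. Among these genes, rho between coding length and the deviation of log2 CPM was 0.040, 0.24 and -0.17 in KO 1 to 3. In WT 1 to 4 it was 0.11, -0.022, -0.047 and -0.15, opposite in sign to the members in WT 1, WT 2 and WT 3. The totals of KO 3 and WT 4, 5348256 and 3907353 counts, lay inside the range of the other libraries.

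**Figure D4:**
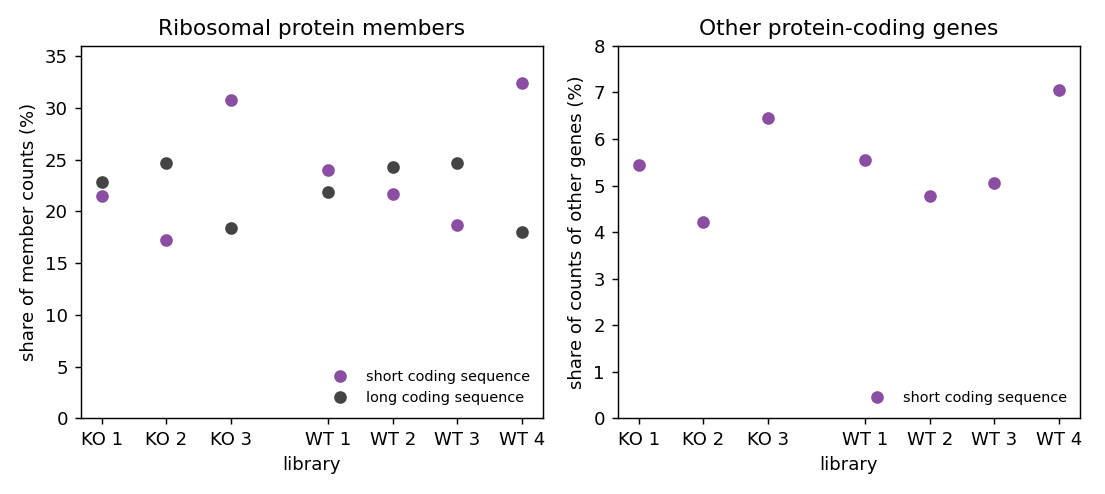
Left, share of the counts of 81 members (%, vertical axis) from 11 short (at most 300 coding bases) and 22 long (at least 600) members in each library; right, the share of the counts of 8559 other protein-coding genes (%) from 212 short ones. Short members exceed long ones in KO 3 (30.8%), in WT 4 (32.4%) and, by less, in WT 1 (24.0% against 21.9%). Short other genes are highest in KO 3 and WT 4, at 6.45% and 7.05%.

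Counts of several members were split with near-identical copies elsewhere in the genome, which matters for how their rows are read. The table had 288 rows with the name of a member and a -ps ending, of which 128 were at 0 throughout, and these took 0.523% to 1.60% of all counts in a library. The 7 members typed as pseudogenes are not among these rows and took 1.39% to 2.42% of the members' counts. Among them, Rps12l1 was at 968 to 3077 CPM and was not counted as a copy of Rps12. Rpl10, an X-linked protein that joins late in the assembly of the large subunit, is the clearest case. Its own row held 14.8, 59.4 and 139 CPM in KO 1 to 3, against 12.5, 30.9, 198 and 289 CPM in WT 1 to 4, a 23.0-fold range. The row Rpl10-ps3 held 43316 counts over the 7 libraries, and 740 aligned bases of the 2 transcripts had 0 mismatches. The last 60 coding bases before the stop codon, where a 3′ tag can fall, are shown for the gene and its copy, and for Rpsa and its copy, from the GENCODE M21 transcripts on GRCm38. Capitals would mark mismatches and none occur.
Rpl10, chrX:74273005-74273064, plus strand: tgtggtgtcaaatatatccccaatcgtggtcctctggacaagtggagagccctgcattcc
Rpl10-ps3, chr9:50344300-50344359, minus strand: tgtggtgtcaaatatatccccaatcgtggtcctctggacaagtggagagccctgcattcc
Rpsa, chr9:120131432-120131491, plus strand: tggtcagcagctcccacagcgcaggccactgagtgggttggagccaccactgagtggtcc
Rpsa-ps12, chr4:149142500-149142559, minus strand: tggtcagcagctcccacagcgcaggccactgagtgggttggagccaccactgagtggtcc
Reads from such a stretch cannot be told apart, and how the authors assigned them was not given in the sources used here.

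With its named copies added, Rpl10 was at 1289, 835 and 2152 CPM in KO 1 to 3, against 956, 1488, 1367 and 1759 CPM in WT 1 to 4, and the range over libraries was 2.58-fold. Copies held 92.9% of the combined counts. The combined level averaged 1425 ± 669 CPM in KO (SD, n = 3) and 1393 ± 334 CPM in WT (SD, n = 4). The low own-row estimate for Rpl10, a log2 fold change of -0.90 ± 1.05 (SE, edgeR adjusted p = 1.00), thus describes a small part of the counts that this sequence received.

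Rpsa behaved differently. Its 888 aligned bases with Rpsa-ps12 had 20 mismatches, none in the last 60 coding bases, and the named copies held 378, 2622 and 455 CPM in KO 1 to 3, against 342, 416, 894 and 181 CPM in WT 1 to 4. KO 2 stood far above the others, so the combined level of 1652, 4940 and 3197 CPM in KO 1 to 3, against 1380, 2415, 3011 and 1920 CPM in WT 1 to 4, ranged more widely (3.58-fold) than the own row (2.64-fold). Copies also held 74.4% of the combined counts for Rpl17, 71.1% for Rps23 and 50.3% for Rpl31. Of the 23 members whose copies had at least 1000 counts, the range over libraries became smaller for 8 once the copies were added. Summing copies into their members before the fit left 0 members called and a median log2 fold change of 0.040.

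**Figure D5:**
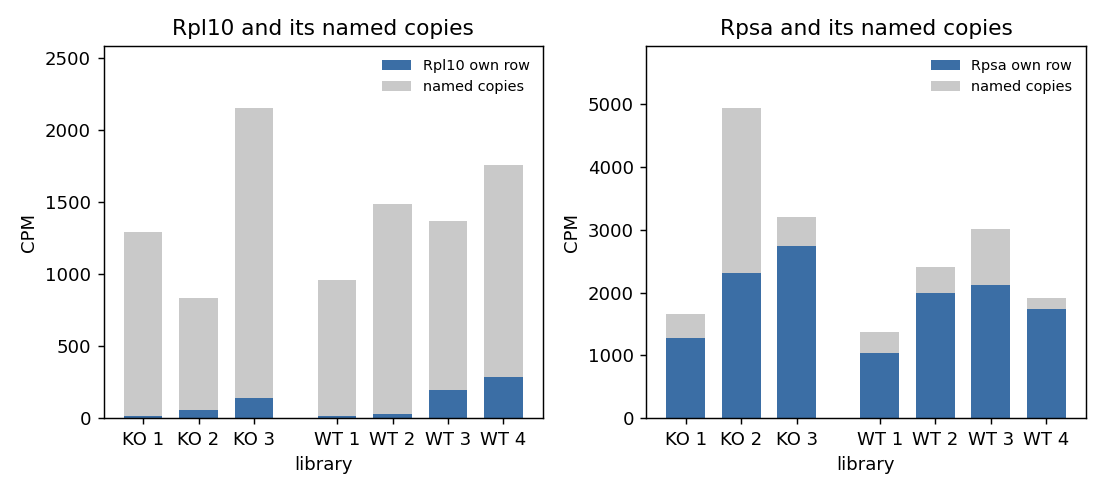
CPM (vertical axis) of the own row and of all named copies, stacked, for Rpl10 (left) and Rpsa (right) in each library (horizontal axis). The Rpl10 own row is a thin base under its copies and the combined level ranges 2.58-fold, while the copies of Rpsa reach 2622 CPM in KO 2.

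Genes around the ribosome gave no call either. Of 25 tested translation factors and other TOP genes, 0 were called, with 17 point estimates above 0 and 8 below and a median log2 fold change of 0.049. Cox7c, a cytochrome c oxidase subunit, had the smallest p of that list, with 112, 53.0 and 186 CPM in KO 1 to 3, against 57.7, 582, 435 and 520 CPM in WT 1 to 4 (log2 fold change -1.77 ± 0.74, edgeR adjusted p = 1.00). WT 1 lay among the KO libraries. Fau, which encodes the small-subunit protein eS30 as a fusion, was at 2058, 2708 and 1610 CPM in KO 1 to 3, against 1308, 1079, 2051 and 1438 CPM in WT 1 to 4, with overlap.

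Of 39 tested ribosome biogenesis genes, 0 were called, with 20 estimates above 0 and 19 below and a median of 0.017. Pes1, needed for maturation of large-subunit rRNA, was at 96.8, 104 and 95.8 CPM in KO 1 to 3, against 52.9, 80.8, 73.5 and 43.2 CPM in WT 1 to 4, a log2 fold change of 0.66 ± 0.29 (SE, edgeR adjusted p = 1.00). All KO libraries lay above all WT libraries. Mrto4, whose yeast counterpart holds the place of the P-stalk base during assembly, averaged 63.4 ± 9.28 CPM in KO (SD, n = 3) and 41.7 ± 13.5 CPM in WT (SD, n = 4). In this list 4 of 39 genes had KO libraries all above and 1 had them all below the WT libraries, beside 1.57% of all 12506 genes in each direction.

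Of 26 tested genes of RNA polymerase I and its regulators, 0 were called, with 9 estimates above 0 and 17 below and a median of -0.062. Myc, a transcription factor that drives ribosome synthesis, was at 2.14, 6.13 and 4.87 CPM in KO 1 to 3, against 5.38, 10.2, 12.3 and 8.74 CPM in WT 1 to 4, with KO 2 above WT 1. Of 78 tested mitochondrial ribosomal protein genes, 0 were called, with 40 estimates above 0 and 38 below and a median of 0.018, beside 0.031 for the cytosolic members and 0.012 for all genes. Mrps26 was at 84.8, 80.2 and 82.8 CPM in KO 1 to 3, against 32.0, 65.1, 66.9 and 36.5 CPM in WT 1 to 4, without overlap. Of the 78 genes, 2 had KO libraries all above and 0 had them all below the WT libraries. The share over all 12506 genes was 1.57% in each direction. Mrpl44 was at 12.8, 18.7 and 20.1 CPM in KO 1 to 3, against 10.8, 54.2, 38.3 and 38.9 CPM in WT 1 to 4, overlapping through WT 1.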

How the data were processed

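The authors deposited whole-number counts per Ensembl gene for 7 libraries. RSEM 1.2.3, DESeq2 and mm10 are named per the submitters' processing notes, with no role given. RSEM gives expected counts, so the deposited counts may be rounded estimates. Of the 51789 rows, 51596 matched a GENCODE M21 symbol and 193 did not. Counts were tested with edgeR 4.0.16 in R 4.3.3 (filterByExpr, TMM factors, robust quasi-likelihood F test, Benjamini-Hochberg adjustment at 0.05), in a fit of all 7 libraries by group. The 12506 tested genes held 99.6% of the counts. CPM values use TMM library sizes. A second fit took the members' total as library size. Alternatives used DESeq2 1.42.0, limma 3.58.1 and other factors, filters, covariates and left-out libraries. The test was checked on simulated counts with known changes. It called 3 of 100 genes changed 2-fold, 42 of 100 at 4-fold, 80 of 100 at 8-fold and 91 of 100 at 16-fold. A result of 0 called therefore leaves room for changes of 2-fold and 4-fold. Transcript pairs were aligned with Biopython 1.88, taking the shortest principal transcript. Promoters, 250 bases before to 50 after the start, are RefSeq's on GRCm38.p6.

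The members and gene lists were chosen with earlier results of these data known. Members named in full were the 5 per direction with the smallest unadjusted p in each fit at a mean of at least 8 CPM, the P-stalk, Rpl5, Rpl11, Rpsa, Rps27a, paralog pairs, X-linked members and the 5 largest and smallest ratios over libraries. Rpl6l, at 0 in WT 1, has no ratio. Rps29, Rps28, Rpl38, Rps21, Rps27rt, Rpl41, Rpl17, Rps23, Rpl31 and Rps12l1 were named after their values were seen. Of each list, up to 4 members with the smallest p qualified. Levels are not compared between members, since tag counts depend on the 3′ end.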

Additional observations from a re-analysis of the deposited data

Results flagged for a closer look

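In 62 values screened over the 4 WT libraries, 6 had a library far from the other WT libraries by Dixon's gap, the distance to the nearest neighbour as a share of the whole range. Chance flags about 1 in 20 groups, and several of these values share genes or libraries. WT 1 was the low library for Rpl39 (gap 0.921), for Rplp0 (gap 0.836) and for the P-stalk share of all counts (gap 0.872), with 518 CPM, 1325 CPM and 0.645%. It was the high library for Rpl3l (gap 0.841), with 15.8 CPM. WT 4 was the high library for Rpl37 (gap 0.884), with 8639 CPM against 2633 to 3333 CPM in the other WT libraries. Outside the members, the summed level of 6 stromal and tumour genes was high in WT 2 (gap 0.922), at 282 CPM against 92.8 to 108 CPM in the other WT libraries. That sum was 208, 153 and 247 CPM in KO 1 to 3.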

How the results depend on the processing

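No member was called at an adjusted p under 0.05 under any alternative run, in either fit, and over all genes the one call was the 1 gene of DESeq2. Leaving out each library in turn gave 0 calls throughout. The 154 genes at an unadjusted p under 0.05 became 97 to 445 with a library left out, 437 with no filter and 524 with limma-voom. They became 405 with the neutrophil score, 349 without WT 2 and KO 3 and 80 with the replicate block. Members at that level, 0 in the fit reported, were at most 4 (limma-voom). Leaving out each library in turn moved the members' median log2 fold change between -0.42 and 0.19. The same omissions moved the difference in the share of counts between -3.14 and 2.97 percentage points. They moved the difference in the share of short members between -4.82 and 1.96 points. The medians of the lists ran from -0.22 to 0.16 for translation factors and TOP genes, -0.25 to 0.17 for ribosome biogenesis, -0.16 to -0.0081 for polymerase I and -0.24 to 0.12 for mitochondrial ribosomal proteins. Without KO 3, 44 of 89 members turned direction and 6 estimates were above 0. Among the members named by p, the directions that turned with a library left out were those of Rpl37rt (-0.42 to 1.30), Rpl5 (-0.089 to 1.10), Rpl13a (-0.17 to 0.93) and, within the members' counts, Rplp2 (-0.015 to 0.68). With WT 2 and KO 3 both left out, Rpl37rt was at -0.25, Rpl5 at -0.11, Rpl13a at -0.091 and the members' median at -0.38, and 9 of 89 estimates were above 0. With the description stem as a covariate, which left KO 1 alone against the WT libraries, Rpl37rt was at -0.31 and Rplp2 at -0.36. The members' median in that fit was -0.34. With limma-voom weights, Rpl37rt was at -0.0052, Rpl5 at -0.16 and the median at -0.28. The cause was not tested. Replicate numbers did not pair the libraries (correlations of same-numbered deviations 0.35, -0.22 and -0.18). A replicate block left 0 members and 0 genes called and a median of 0.091, and within the members' counts it put Rpl10 at 0.0057. Chosen after seeing the data were the summed copies and a limit of 350 coding bases for short members. Depth limits low members: between 3228292 and 5657192 counts per library left Rps4l and Rpl32l too low to test.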
